A study of Homo sapiens with 79 samples.

Results

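The nuclear-encoded mRNAs of the respiratory chain and ATP synthase were followed through fRIP of 24 proteins in K562 cells. They were taken as the rows of the gene table whose symbol begins with NDUFA, NDUFB, NDUFC, NDUFS, NDUFV, UQCR, COX4, COX5, COX6, COX7, COX8 or ATP5, without symbols that end in P and digits (pseudogenes) or in -AS and a digit. Of 214 rows with these starts the rule left out 119, so that 95 rows with 92 symbols remained of 48453 rows in the table. They comprised 7 core subunits, 30 accessory subunits and 7 assembly factors of complex I, 8 subunits of complex III, 11 of complex IV, 15 of ATP synthase, 6 isoforms of complex IV known from other tissues, and 11 other rows (relatives, read-through rows and second rows of a symbol). Testing required at least 1 FPKM (fragments scaled to transcript length and library size) in at least 2 libraries, which 92 of the 95 passed. The 3 that did not were COX4I2, COX6A2 and COX8C, which are complex IV isoforms of other tissues.

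K562 is an established human erythroleukemia cell line, and all groups were these cells, grown without drug or genetic change and lightly cross-linked with formaldehyde. In fRIP the cells are sonicated, 1 antibody recovers 1 protein with the RNA held to it, and this RNA is sequenced after depletion of ribosomal RNA. The 70 fRIP libraries covered 22 proteins with 3 libraries and 2 proteins (EZH2 and STAG2) with 2, and 9 libraries of input RNA from the lysate, in 3 labelled sets of 3, served as the background. Each protein was recovered with a single antibody, and the study gives the fRIP replicates as separate lysates on different dates. They comprised RNA binding proteins (PABP, HUR, IMP1, ADAR, HNRNPU, HNRNPH1), subunits of Polycomb and Trithorax-type complexes (SUZ12, EZH2, WDR5, RBBP5), remodellers (CHD4, CHD7, CHD1), chromatin enzymes (DNMT1, LSD1, PHF8, HDAC1, PCAF, CBP), and CTCF, STAG2, NUP98, CBX3 and its phosphorylated form phospho-CBX3.

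Oxidative phosphorylation passes electrons from NADH through complexes I, III and IV to oxygen, and ATP synthase uses the resulting proton gradient to make ATP. Most subunits are encoded in the nucleus, translated in the cytosol and imported into mitochondria, while a small set is encoded by mitochondrial DNA and translated inside the organelle. Many of the nuclear subunits are very small proteins, and their mRNAs are abundant, short and polyadenylated.

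Length is the feature on which several comparisons below turn, and 5 short coding sequences are shown for that reason. COX7C and COX8A (complex IV) and NDUFA1 (complex I accessory) were the 3 members whose fold changes varied most over the fRIPs among those with at least 10 FPKM in input, UQCRQ is a small subunit of complex III, and ATP5E is the epsilon subunit of ATP synthase. The sequences run 5′ to 3′, are joined over their exons, and come from the GRCh37 reference with the GENCODE v44 annotation lifted to it. They span chr5:85913873-85915286 on the plus strand (COX7C), chr11:63742153-63743792 plus (COX8A), chrX:119005875-119010497 plus (NDUFA1), chr5:132202574-132203274 plus (UQCRQ) and chr20:57605361-57607306 minus (ATP5E). Capitals mark the start and the stop codon.
COX7C: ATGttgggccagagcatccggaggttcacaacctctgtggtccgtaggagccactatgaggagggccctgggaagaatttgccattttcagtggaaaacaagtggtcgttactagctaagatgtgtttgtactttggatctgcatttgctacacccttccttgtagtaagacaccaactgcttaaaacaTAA
COX8A: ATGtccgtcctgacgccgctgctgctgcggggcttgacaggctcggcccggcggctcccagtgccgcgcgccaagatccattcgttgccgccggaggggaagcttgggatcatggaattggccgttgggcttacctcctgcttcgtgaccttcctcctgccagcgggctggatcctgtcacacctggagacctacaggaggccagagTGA
NDUFA1: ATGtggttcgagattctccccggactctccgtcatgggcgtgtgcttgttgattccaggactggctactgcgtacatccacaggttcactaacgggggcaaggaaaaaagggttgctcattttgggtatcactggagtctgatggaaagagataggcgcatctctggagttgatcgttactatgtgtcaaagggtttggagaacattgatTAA
UQCRQ: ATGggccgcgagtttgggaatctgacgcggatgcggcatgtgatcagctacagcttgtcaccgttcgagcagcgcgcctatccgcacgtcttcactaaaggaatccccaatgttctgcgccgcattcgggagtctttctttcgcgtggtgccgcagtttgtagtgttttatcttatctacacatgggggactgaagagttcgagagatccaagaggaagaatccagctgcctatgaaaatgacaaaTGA
ATP5E: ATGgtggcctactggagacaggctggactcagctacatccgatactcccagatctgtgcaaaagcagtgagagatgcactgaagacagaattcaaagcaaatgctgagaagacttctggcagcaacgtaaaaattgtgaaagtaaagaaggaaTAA
Their coding lengths with the stop codon were 192, 210, 213, 249 and 156 nt in this order. Over all members the median mRNA length, weighted over isoforms by input FPKM, was 692 nt, and it was 541 nt for complex IV, 626 nt for the complex I accessory subunits, 724 nt for ATP synthase, 727.5 nt for complex III, 832 nt for the complex I core and 971 nt for the assembly factors.

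In input the members were abundant. Their median was 81.2 FPKM, 82 of 95 had a mean of at least 10 FPKM and 42 of at least 100 FPKM. ATP5B, the catalytic beta subunit of ATP synthase, was the highest with 781 FPKM (563 to 963 over the 9 inputs, median 823). UQCRH, the hinge subunit of complex III, had 597 FPKM, ATP5G3, a c subunit of ATP synthase, 503 FPKM, and COX7C 461 FPKM. The assembly factors, which help to build complex I and are not part of it, were lower, with a median of 22.5 FPKM and a range of 14.2 to 60.4 FPKM. The isoforms from other tissues had a median of 0.209 FPKM and at most 1.17 FPKM (COX6B2, known from testis), and 5 of these 6 lay under 1 FPKM. Between neighbouring ranks the spread over inputs was wide: COX7C (298 to 555 FPKM) overlapped with both ATP5G3 (310 to 736 FPKM) and UQCRH (418 to 717 FPKM).

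The 3 input sets did not measure these mRNAs alike. The median member had 57.8 FPKM in set 1, 87.8 in set 2 and 93.4 in set 3. Set 1 lay below set 2 in 83 of 92 members (median log2 difference -0.59) and below set 3 in 82 (-0.63), whereas sets 2 and 3 differed by a median of -0.01. For this reason each fRIP's count over all members is given against the 9 inputs and against the matched set, that is the set whose mean is nearest to the input values in the deposited table of comparisons (set 1 for most proteins with low members). Counts by complex, for other genes and for isoforms are against the 9 inputs unless stated, and those by complex move with the set too: of the accessory subunits of complex I, 24 were lower in SUZ12 fRIP against the 9 inputs and 17 against the matched set, and 9 and 15 were higher in DNMT1 fRIP. All comparisons of a fRIP with input share these 9 libraries. Sequence shared between genes adds a further limit, since over 30% of the 31-base words of 22 member rows also occur in other genes, up to 98.9% for the ATP5J2-PTCD1 read-through row and 98.5% for the second row of NDUFB8. Values of such rows, COX8A (31.5%), UQCRH (49.7%), ATP5J2 (57.5%) and NDUFA7 (81.1%) among them, depend on how reads were divided between copies.

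Depth was estimated from the smallest steps between low FPKM. It was 1.91 to 58.0 M (mega) fragments in the fRIP libraries, 11.8 to 30.2 M fragments in the inputs and 1.91 to 2.28 M fragments in the ADAR libraries, the shallowest. The erythroid markers were present in the inputs, GATA1 at 82.3 FPKM and HBG2 at 866 FPKM. Of the genes that mark other cell types, EPCAM, an epithelial marker, had 36.2 FPKM in input, and MS4A1 and NEUROD1 were listed at 0 in 68 and 65 of 79 libraries.

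Which proteins recover respiratory chain mRNAs more or less than the lysate holds them was asked first. The fit (limma, over all genes tested) was made on log2(FPKM + 1), and fold changes of low rows are understated on this scale. A member was called when its log2 fold change passed 1 in size and its p, after Benjamini-Hochberg adjustment, was below 0.05. FPKM is a share of each library, so more of these mRNAs and less of other RNA cannot be told apart. Of 2208 pairs of a member and a fRIP, 147 (6.66%) were called higher and 557 (25.2%) lower, where over all genes and fRIPs 6.90% of pairs were higher and 5.52% lower. Against the matched sets 170 pairs were higher and 384 lower. The median member lay below 0 in 19 of 24 fRIPs with either background, but not in the same ones: with the matched set the median turned from 0.05 to -0.15 in CHD1 fRIP and from -0.07 to 0.31 in CTCF fRIP. At least 20 members were lower in 12 fRIPs, and members were more often higher than lower in 6 fRIPs, of which PABP, DNMT1 and CHD4 fRIP had 7 or more called higher. With the matched sets at least 20 were lower in 7 fRIPs, and more were higher than lower in 3 (PABP, DNMT1 and CHD4). Other scalings change these counts, and where centring each comparison on the median of all genes moves the share of higher calls by over 10 percentage points, both splits are given.

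**Figure D1:**
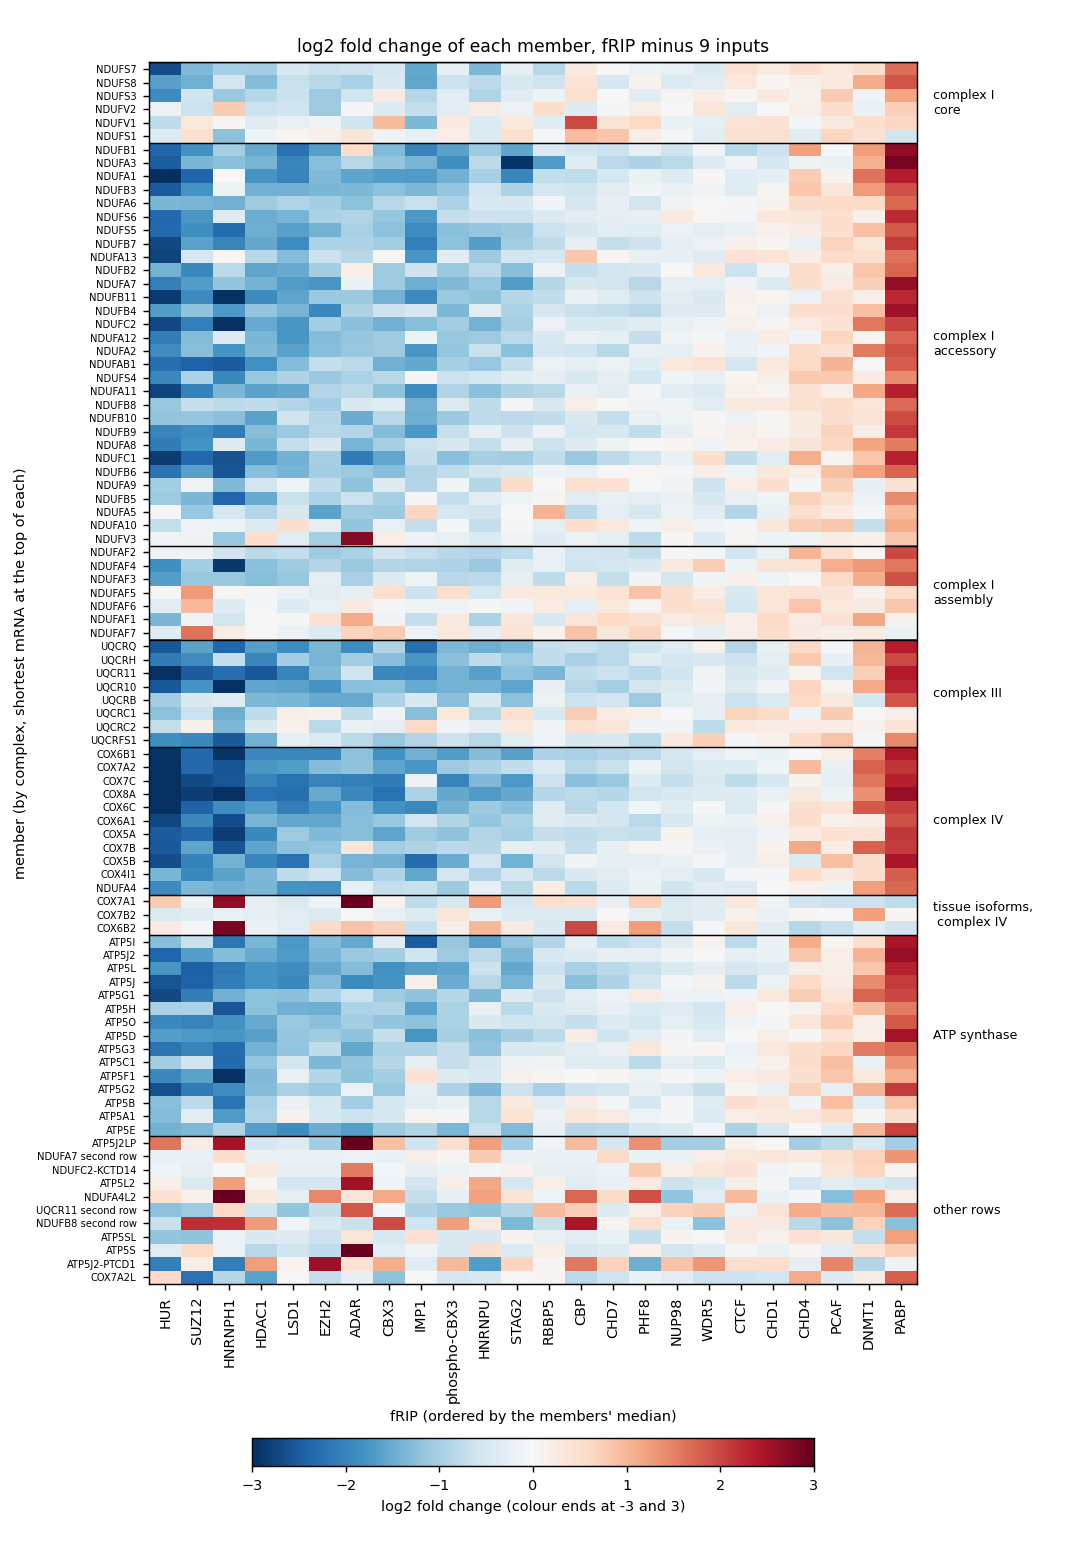
Heat map of the log2 fold change of the 92 members tested, with 1 core subunit of complex I not shown (vertical axis, grouped by complex with the shortest mRNA at the top of each group) in each of the 24 fRIPs against the 9 inputs (horizontal axis, ordered by the members' median), with colours that end at -3 and 3. PABP fRIP is the column with most members higher (67), HUR fRIP the column with most lower (69), and all 11 complex IV subunits are called in both, in opposite directions.

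**Figure D2:**
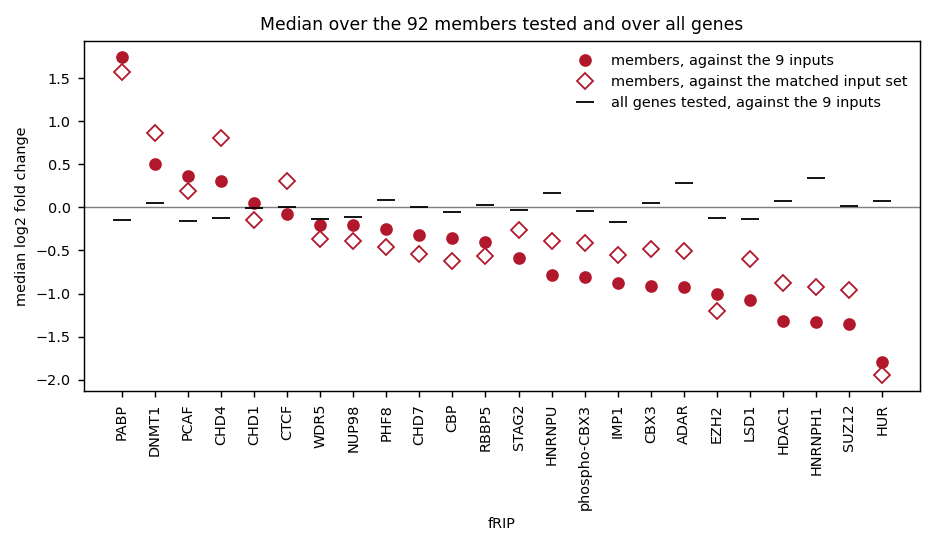
Median log2 fold change over the 92 members (vertical axis) in each fRIP (horizontal axis), with filled circles for the comparison with the 9 inputs, open diamonds for the matched input set and bars for the median of all genes tested. The members' median ranges from 1.75 in PABP fRIP to -1.80 in HUR fRIP, while the median of all genes lies between -0.17 (IMP1) and 0.34 (HNRNPH1).

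PABP fRIP recovered the members most. PABP binds the poly(A) tail of mature mRNAs, and 67 of 92 members were higher and 2 lower than input, with 11.1% of all genes tested higher and 14.7% lower. The members' median log2 fold change was 1.75 and that of all genes -0.15. Against the matched set 64 were higher and 1 lower, with a median of 1.57. All 11 complex IV subunits were higher (1.73 to 2.60), as were 13 of 15 ATP synthase subunits, 27 of 30 complex I accessory subunits and 6 of 8 complex III subunits, but 3 of 7 core subunits and 3 of 7 assembly factors of complex I, and 0 of the 3 tissue isoforms tested. The 2 members lower were ATP5J2LP and the second row of NDUFB8, both rare in input.

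COX7C, a small subunit at the edge of complex IV, had 2192, 2070 and 2532 FPKM in the PABP libraries, while the inputs had 298 to 555 FPKM (median 508). Every PABP library lay above every input, and the difference was 2.33 ± 0.22 on the log2 scale (SE, limma adjusted p = 1.25e-13, exact two-sided permutation p = 0.00455, the smallest that 3 against 9 libraries can give). COX8A, the smallest complex IV subunit, had 1814, 1895 and 2442 FPKM in PABP fRIP and 191 to 488 FPKM in input (median 404), also with no overlap. NDUFA3, a membrane arm subunit of complex I, had the largest fold change of all members, with 212, 242 and 307 FPKM against 22.3 to 41.3 FPKM in input, a log2 difference of 2.88 ± 0.25 (SE, limma adjusted p = 1.70e-15). NDUFB1 (2.65 ± 0.16) and NDUFA7 (2.63 ± 0.18), accessory subunits of complex I, followed.

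Several large subunits rose less or not at all. NDUFS1, the largest core subunit of complex I, had 47.1, 45.8 and 39.7 FPKM in PABP fRIP and 46.3 to 84.8 FPKM in input, so that the groups overlapped at their edges, with a log2 difference of -0.55 ± 0.15 (SE, limma adjusted p = 0.0012). UQCRC1, a core protein of complex III, had 191, 203 and 151 FPKM against 130 to 190 FPKM (log2 difference 0.18, limma adjusted p = 0.24). ATP5A1 (0.51) and ATP5B (0.85), the alpha and beta subunits of the catalytic head of ATP synthase, lay above every input but under the fold needed for a call. ATP5E, ATP5G1 and ATP5G2, small subunits of the same enzyme, were called at 2.05, 2.01 and 2.09.

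DNMT1 fRIP was the next highest. DNMT1 is the maintenance DNA methyltransferase, and 29 members were higher and 0 lower, with 9.56% of all genes tested higher and 6.88% lower; at an alternative pseudocount of 0.1 FPKM 2 members were lower. Against the matched set 42 were higher and 0 lower. Higher were 7 of 11 complex IV subunits, 3 of 7 assembly factors, 9 of 30 accessory and 1 of 7 core subunits of complex I, 5 of 15 ATP synthase and 2 of 8 complex III subunits. COX6C, a complex IV subunit without a bacterial counterpart, had 683, 724 and 1070 FPKM in DNMT1 fRIP and 131 to 297 FPKM in input (median 270), a log2 difference of 1.83 ± 0.22 (SE, limma adjusted p = 2.97e-10). COX7A2 (1.77 ± 0.15) and COX7B (1.77 ± 0.20), also complex IV, had no library within the input range. COX7C in DNMT1 fRIP had 1077, 1181 and 2049 FPKM, between its levels in input and in PABP fRIP for all 3 libraries.

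CHD4 fRIP raised few members beyond the threshold, and the count depended on library, input set and scaling. CHD4 is the ATPase of the NuRD chromatin remodelling complex, and 7 members were higher and 0 lower, with 2.91% of all genes higher and 9.79% lower. Against input set 1, its matched set, 27 were higher and 2 lower, and after centring 21 were higher and 0 lower. NDUFB1 had 252, 146 and 256 FPKM in CHD4 fRIP and 70.1 to 122 FPKM in input, so that every fRIP library was higher (log2 difference 1.22 ± 0.16 SE, limma adjusted p = 1.18e-08). COX7B (1.13) and ATP5I, the e subunit of ATP synthase (1.11), followed among the members with every library above every input, and both lay under 1 without CHD4 replicate 3. The second CHD4 library stood apart: COX7C had 640, 248 and 701 FPKM in CHD4 fRIP, and COX8A 495, 249 and 531 FPKM, so that replicate 2 lay below the other 2 in both. Without CHD4 replicate 2 the count was 12, without replicate 1 it was 4, without replicate 3 it was 2 and without input1 replicate 1 it was 4.

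**Figure D3:**
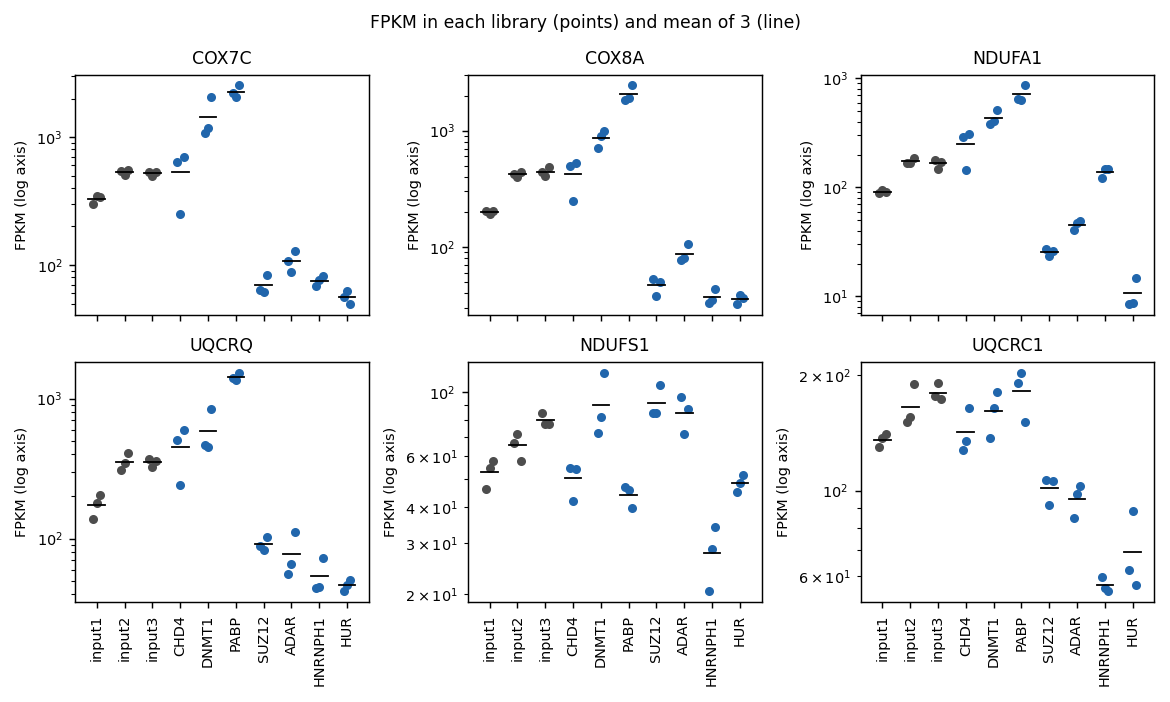
FPKM on a log axis (vertical) for COX7C, COX8A, NDUFA1, UQCRQ, NDUFS1 and UQCRC1 in each library (points) and as the mean of the libraries (lines) of the 3 input sets and 7 fRIPs (horizontal axis). COX7C lies at 2070 to 2532 FPKM in PABP fRIP and at 49.7 to 83.4 FPKM in HUR and SUZ12 fRIP, whereas NDUFS1 stays between 39.7 and 51.7 FPKM in both PABP and HUR fRIP.

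HUR fRIP held the members least. HUR (ELAVL1) binds U-rich elements and stabilises mRNAs, and 69 members were lower and 1 higher than input, with 6.93% of all genes lower and 6.42% higher. Against the matched set 70 were lower and 1 higher. All 11 complex IV subunits were lower, 14 of 15 ATP synthase subunits, 27 of 30 accessory and 4 of 7 core subunits of complex I, 7 of 8 complex III subunits and 3 of 7 assembly factors. NDUFA1, which spans the membrane in complex I, had 8.55, 8.77 and 14.9 FPKM in HUR fRIP and 88.8 to 185 FPKM in input (median 166), the largest fall of all members at -3.61 ± 0.19 on the log2 scale (SE, limma adjusted p = 9.74e-24). COX7C had 55.9, 62.4 and 49.7 FPKM (log2 difference -2.99) and COX8A 32.4, 38.9 and 36.4 FPKM (-3.19), all below every input. NDUFS1 had 45.1, 48.6 and 51.7 FPKM in HUR fRIP, at the lower edge of the input range (46.3 to 84.8 FPKM), with a log2 difference of -0.42 ± 0.15 (SE). The 1 member higher was ATP5J2LP, a row with a pseudogene name that the rule keeps.

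SUZ12 fRIP was low for the same complexes. SUZ12 is a core subunit of the Polycomb complex PRC2, and 57 members were lower and 3 higher, with 8.60% of all genes lower and 15.3% higher. Against the matched set 43 were lower and 4 higher. All 11 complex IV subunits were lower, 24 of 30 accessory subunits of complex I, 10 of 15 ATP synthase and 5 of 8 complex III subunits. COX8A had 52.8, 37.7 and 49.5 FPKM in SUZ12 fRIP (log2 difference -2.83 ± 0.22 SE), COX7C 63.4, 61.6 and 83.4 FPKM (-2.69 ± 0.22) and UQCR11, the smallest complex III subunit, 15.8, 13.4 and 22.3 FPKM (-2.50 ± 0.32), each below every input.

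The 7 assembly factors of complex I were divided in SUZ12 fRIP, with 2 higher, 2 lower and a median of -0.10; against the matched set 3 were higher and 0 lower. NDUFAF7, a methyltransferase that modifies a complex I core subunit, had 43.9, 40.9 and 52.7 FPKM and 11.5 to 16.4 FPKM in input (log2 difference 1.62 ± 0.14 SE, limma adjusted p = 6.22e-16), with every SUZ12 library above every input. NDUFAF5, which hydroxylates another core subunit, had 32.4, 39.8 and 43.7 FPKM against 10.9 to 22.0 FPKM (1.28 ± 0.19 SE, limma adjusted p = 4.68e-08). NDUFAF6 had a log2 difference of 0.98, short of the fold needed for a call. The lower ones were NDUFAF3 (12.4, 7.96 and 9.72 FPKM, -1.14 ± 0.17 SE) and NDUFAF4 (20.7, 16.2 and 22.7 FPKM, -1.02 ± 0.32 SE). The third member higher was the second row of NDUFB8 (2.21), most of whose sequence is shared with other rows.

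HNRNPH1 fRIP had 57 members lower and 6 higher, with 7.90% of all genes lower and 24.5% higher. HNRNPH1 is a splicing regulator that binds runs of guanine. Against the matched set 44 were lower and 5 higher, and after centring 72 were lower and 5 higher, since the median of all genes in this comparison was 0.34. All 11 complex IV subunits, 14 of 15 ATP synthase, 20 of 30 accessory complex I and 6 of 8 complex III subunits were lower. ATP5F1, the b subunit in the stalk of ATP synthase, had 32.6, 27.4 and 38.3 FPKM in HNRNPH1 fRIP and 241 to 426 FPKM in input (-3.37 ± 0.16 SE, limma adjusted p = 7.17e-26). COX8A (-3.14) and NDUFC2 (-3.14), an accessory subunit of complex I, followed it.

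NDUFA1 was unlike its neighbours in HNRNPH1 fRIP, with 122, 146 and 148 FPKM, within the input range, and a difference that rounds to 0 (limma adjusted p = 1). Among the rows with low input, NDUFA4L2, a relative of NDUFA4 known to be induced by hypoxia, had 67.6, 72.4 and 58.9 FPKM in HNRNPH1 fRIP and 1.95 to 9.49 FPKM in input (3.28 ± 0.37 SE, limma adjusted p = 1.91e-11). COX6B2 had 7.68, 16.9 and 22.3 FPKM against 0.481 to 2.15 FPKM (2.85), and COX7A1, the heart and muscle isoform of subunit VIIa, 10.2, 11.1 and 9.12 FPKM against 0.138 to 1.51 FPKM (2.67 ± 0.23 SE). These 3 low rows lay above every input, in a comparison that called 24.5% of all genes higher.

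ADAR fRIP had 39 members lower and 8 higher, with 4.31% of all genes lower and 26.6% higher. ADAR deaminates adenosine to inosine in double-stranded RNA. The count depended on the background and the scaling: against the matched set 9 were lower and 8 higher, and after centring 73 were lower and 5 higher (higher calls were 17.0% of the called members before centring and 6.4% after), with a median of all genes of 0.29. NDUFC1, a small accessory subunit, had 34.7, 11.7 and 34.6 FPKM in ADAR fRIP and 66.8 to 135 FPKM in input (-2.09 ± 0.21 SE). COX7C, with 108, 87.7 and 129 FPKM (-2.06 ± 0.22), and COX8A, with 77.1, 79.9 and 105 FPKM (-1.94 ± 0.22), also lay below every input and fell with the matched set too (-1.60 and -1.20).

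The members higher in ADAR fRIP were of other kinds. NDUFV3, a subunit of the NADH-binding part of complex I with a long mRNA, had 329, 333 and 324 FPKM and 43.9 to 57.8 FPKM in input (2.74 ± 0.11 SE, limma adjusted p = 5.82e-30). ATP5S, a factor associated with ATP synthase, had 99.4, 80.8 and 98.7 FPKM against 8.55 to 12.5 FPKM (2.96 ± 0.13 SE, limma adjusted p = 6.49e-28). COX7A1 had 12.5, 12.1 and 13.0 FPKM (2.95), and ATP5J2LP 35.6, 97.9 and 47.8 FPKM against at most 2.28 FPKM (4.80 ± 0.43 SE). No ADAR library of these rows overlapped with an input.

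In HDAC1, LSD1, EZH2, CBX3, phospho-CBX3 and STAG2 fRIP more members were lower than higher. HDAC1 fRIP (HDAC1 is a histone deacetylase) had 59 lower and 2 higher with 5.35% and 8.42% of all genes, and against the matched set 29 lower and 1 higher. LSD1 fRIP (a histone demethylase) had 48 lower and 0 higher with 6.66% and 0.814% of all genes, and 27 lower and 0 higher with the matched set. EZH2 fRIP (the methyltransferase of PRC2) had 46 lower and 2 higher with 9.13% and 10.5% of all genes, and 54 lower and 2 higher with the matched set, and 1 higher without EZH2 replicate 2. In each of these the largest fall was in a short mRNA of complex III or IV: UQCR11 in HDAC1 fRIP (-2.54), COX8A in LSD1 fRIP (-2.26) and COX7C in EZH2 fRIP (118 and 105 FPKM against 298 to 555 FPKM).

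CBX3 fRIP (heterochromatin protein HP1 gamma) had 42 lower and 3 higher with 3.65% and 7.45% of all genes; the matched set gave 13 lower and 3 higher, and leaving out CBX3 replicate 2 gave 24 lower. Phospho-CBX3 fRIP had 33 lower and 1 higher with 2.91% and 2.58% of all genes, 5 lower and 1 higher with the matched set, and 20 lower without phospho-CBX3 replicate 1; 2 were higher without phospho-CBX3 replicate 2, input2 replicate 3 or input3 replicate 2. STAG2 fRIP (a cohesin subunit, 2 libraries) had 27 lower and 0 higher with 3.36% and 0.979% of all genes, and 8 lower and 1 higher with the matched set. NDUFA3 gave the largest fall in STAG2 fRIP, with 4.54 and 2.63 FPKM against 22.3 to 41.3 FPKM (-2.94 ± 0.29 SE, limma adjusted p = 1.24e-11). It was chosen among members with every STAG2 library below every input. Its lack of overlap with input is therefore no separate result.

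The remaining RNA binding proteins were lower as well. IMP1 fRIP (IMP1 binds mRNAs in the cytoplasm) had 38 lower and 0 higher with 10.5% and 4.23% of all genes, 30 lower and 1 higher with the matched set, and ATP5I fell most (44.1, 29.1 and 37.6 FPKM against 113 to 292 FPKM, -2.50). HNRNPU fRIP (a nuclear matrix protein) had 28 lower and 4 higher with 2.52% and 13.1% of all genes, 4 lower and 1 higher with the matched set, and 71 lower and 0 higher after centring. Higher calls were thus 12.5% of the called members in HNRNPU fRIP before centring and 0% after.

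In fRIP of the other 9 proteins at most 6 members were called in either direction against the 9 inputs. CBP fRIP (an acetyltransferase and coactivator) had 6 higher and 3 lower with 9.08% and 3.78% of all genes, and 6 higher and 16 lower with the matched set. Without any 1 of the 3 libraries of input set 1, 6 were lower. NDUFV1, the flavoprotein subunit of complex I that takes electrons from NADH, had 792, 721 and 779 FPKM in CBP fRIP and 151 to 241 FPKM in input, a log2 difference of 1.97 ± 0.13 (SE, limma adjusted p = 2.49e-19) with no overlap. In CBX3 fRIP NDUFV1 lay above every input as well (343, 346 and 457 FPKM, 0.96), under the fold needed for a call.

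PHF8 fRIP (a histone demethylase) had 3 higher and 2 lower with 3.18% and 1.71% of all genes, 3 higher and 8 lower with the matched set, and 3 higher and 10 lower after centring; without PHF8 replicate 3 there were 4 lower. CHD7 fRIP (a remodeller) had 0 higher and 1 lower (COX7C, -1.12, not called without CHD7 replicate 3, while 2 to 4 were lower without CHD7 replicate 1 or 2 or a library of input set 1) with 0.99% and 0.896% of all genes, and 13 lower with the matched set. RBBP5 fRIP (a subunit of histone H3 lysine methyltransferase complexes) had 1 higher and 2 lower with 2.28% and 0.731% of all genes, 0 and 7 with the matched set, and 7 lower without RBBP5 replicate 3; after centring 0 were higher and 9 lower. NDUFA3 was the lower of those 2 by fold, at 7.62, 8.56 and 13.0 FPKM (-1.71), and NDUFA5 the 1 higher (1.03), which was under 1 without any of the 3 libraries of input set 1.

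WDR5 fRIP, from the same complexes as RBBP5, had 1 higher and 1 lower with 3.90% and 6.71% of all genes, 0 and 1 with the matched set, and 3 higher and 0 lower after centring; without WDR5 replicate 3 none was called by limma, and without input1 replicate 1 or input3 replicate 1 there were 2 lower. PCAF fRIP (an acetyltransferase) had 3 higher and 2 lower with 0.515% and 8.54% of all genes, 0 and 0 with the matched set, and 44 higher and 0 lower after centring, with a median of all genes of -0.16. Without input1 replicate 1 the number higher was 1, and without PCAF replicate 3 the number lower was 1. NUP98 fRIP (a nuclear pore protein) had 0 higher and 1 lower (NDUFA4L2, -1.19) with 0.263% and 5.11% of all genes, 0 and 0 with the matched set, and 1 higher and 0 lower after centring. Without NUP98 replicate 3 the call of NDUFA4L2 was lost, without input3 replicate 1 there were 2 lower, and without NUP98 replicate 1 or input2 replicate 3 there was 1 higher. CHD1 fRIP (a remodeller) and CTCF fRIP (an insulator protein) had 0 and 0 by limma, also with the matched sets. Of all genes 0.424% were higher and 1.00% lower in CHD1 fRIP, and 0.424% higher and 0.79% lower in CTCF fRIP. Leaving out CTCF replicate 3 gave 4 lower, and leaving out input1 replicate 1 gave 1 lower in CTCF fRIP.

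4 comparisons of a fRIP with another fRIP do not use the inputs. CHD4 against SUZ12 fRIP differed most, with 64 members higher in CHD4 fRIP and 3 lower, where 12.2% of all genes were higher and 22.8% lower. The members' median was 1.72 and that of all genes -0.22. All 11 complex IV subunits, 26 of 30 accessory complex I, 13 of 15 ATP synthase and 6 of 8 complex III subunits were higher in CHD4 fRIP, but 2 of 7 core subunits of complex I. NDUFC1 had 259, 154 and 297 FPKM in CHD4 and 20.8, 16.3 and 23.2 FPKM in SUZ12 fRIP (3.45 ± 0.26 SE, limma adjusted p = 9.59e-18). COX7A2L, a factor of supercomplexes of III and IV, had 364, 360 and 283 FPKM against 29.0, 35.5 and 32.3 FPKM (3.33 ± 0.22 SE). In the other direction NDUFAF7 had 16.3, 17.6 and 18.3 FPKM in CHD4 and 43.9, 40.9 and 52.7 FPKM in SUZ12 fRIP (-1.34 ± 0.17 SE, limma adjusted p = 3.45e-10).

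SUZ12 and EZH2 are partners in PRC2, and their fRIPs differed in 26 members: 6 were higher in SUZ12 fRIP and 20 lower, with 18.5% and 13.1% of all genes. The members' median was -0.39. The matched input sets of the 2 proteins differ, set 1 for SUZ12 and set 3 for EZH2. Against its own set the members' median was -0.96 in SUZ12 and -1.20 in EZH2 fRIP, the opposite order. NDUFAB1 had 80.7 FPKM in set 1 and 172 FPKM in set 3. The part of the input sets in this comparison was not tested. NDUFAF7 was again higher in SUZ12 fRIP (10.5 and 10.4 FPKM in EZH2 fRIP, 2.02 ± 0.19 SE), and NDUFAB1, the mitochondrial acyl carrier protein, lower (24.6, 18.7 and 32.1 against 80.3 and 83.7 FPKM, -1.70 ± 0.36 SE). Without SUZ12 replicate 2 the number lower was 13. Phospho-CBX3 against CBX3 fRIP gave 0 higher and 1 lower with 0.33% and 2.40% of all genes. That member was NDUFA4L2 (8.79, 3.72 and 3.33 against 15.2, 16.8 and 11.3 FPKM, -1.38 ± 0.45 SE, limma adjusted p = 0.035), and its call was lost without any of 4 of the 6 libraries. WDR5 against RBBP5 fRIP gave 4 higher and 1 lower with 5.17% and 12.9% of all genes, and 28 higher and 0 lower after centring. NDUFA5 was the member lower in WDR5 fRIP, with 88.7, 89.6 and 93.3 FPKM against 236, 229 and 229 FPKM in RBBP5 fRIP (-1.34 ± 0.18 SE), and NDUFA3 was higher (21.3, 23.8 and 30.9 against 7.62, 8.56 and 13.0 FPKM, 1.31 ± 0.30 SE).

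Members differed in how much they moved over the 24 fRIPs. Among the 82 with at least 10 FPKM in input, COX8A (SD of the log2 fold change 1.36), NDUFA1 (1.30) and COX7C (1.29) varied most. The assembly factors NDUFAF6 (0.40), NDUFAF5 (0.44) and NDUFAF7 (0.47) varied least. COX7C was lower in 13 fRIPs and higher in 2, the most frequent fall of any member, and NDUFA4L2 was higher in 7, the most frequent rise. NDUFAF6 was the 1 member called in no fRIP. The core subunits of complex I were uneven: NDUFS1 was lower in 1 fRIP and higher in 0, NDUFV1 higher in 1 and lower in 1, and NDUFV2 lower in 1, whereas NDUFS7 was lower in 6 and higher in 1.

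Outside the list, the genes whose pattern over the 24 fRIPs was most like the members' median pattern were CTD-2659N19.10 and UXT (Pearson r = 0.97 each), SNRPC (0.97), TRMT112 (0.96) and TIMM17B (0.96), of 8227 genes with at least 10 FPKM in input. These correlations are across fRIPs that share the inputs and are given as a description.

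In several fRIPs the fold changes of members were related to mRNA length. Over the 82 members with at least 10 FPKM in input, Spearman's coefficient between log2 fold change and length was -0.75 in PABP fRIP, 0.65 in HUR fRIP and 0.53 in SUZ12 fRIP. Over 7353 other mRNAs of at least 10 FPKM it was -0.60, 0.51 and 0.40. LSD1 fRIP (0.77 among members, 0.38 among others), STAG2 fRIP (0.75 and 0.17) and phospho-CBX3 fRIP (0.71 and 0.36) had higher values among members. The 2 sets differ in length: 9 of the 82 members and 4077 of the 7353 other mRNAs were of 2000 nt or more. In STAG2 fRIP the others' median was -0.96 under 600 nt and 0.11 from 1200 to under 2000 nt. The members' medians there were -1.22 and 0.30. At 2000 nt or more the others stood at 0.10. Over all lengths the coefficient was 0.41 among members and -0.07 among other mRNAs in CHD1 fRIP. It was 0.43 and 0.03 in CBP fRIP, and -0.11 and 0.08 in WDR5 fRIP. Below 2000 nt other mRNAs rose with length in CHD1 and CBP fRIP too. From under 600 nt to 1200 to under 2000 nt their medians went from -0.14 to 0.17 in CHD1 fRIP. In CBP fRIP they went from -0.54 to 0.32. At 2000 nt or more they were 0.09 in CHD1 and 0.20 in CBP fRIP. The coefficients are correlations across genes measured in the same libraries, and genes are not independent replicates. They also depend on the length used: over all 92 members the coefficient was -0.58 in PABP and 0.45 in SUZ12 fRIP with the weighted length, and -0.33 and 0.23 with the longest annotated transcript.

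Medians of members and of other mRNAs of like length are set side by side, with no test. In PABP fRIP 26 members under 600 nt had a median log2 fold change of 2.25, and 172 other mRNAs of that length 2.01. From 1200 to under 2000 nt the medians were 0.60 (10 members) and 0.63 (1989 others). In HUR fRIP the same classes gave -2.48 and -1.76 under 600 nt, and -1.10 and -0.30 from 1200 to under 2000 nt. SUZ12 fRIP gave -1.83 and -1.56 under 600 nt. For the 9 members of 2000 nt or more the medians were 1.11 against -0.22 for other mRNAs in PABP fRIP, -1.14 against 0.69 in SUZ12 fRIP and -0.71 against 0.21 in HUR fRIP. These 9 include ATP5E, whose coding sequence is 156 nt, and lengths come from a later annotation than the one the FPKM were made with. The fragment length that best turned low values into whole fragments was 155 to 165 nt in HUR fRIP, 140 to 145 nt in PABP fRIP and 135 to 140 nt in the inputs, and its part in the relation with length was not tested.

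In CHD4 fRIP the second library differed in this measure too. Over all members Spearman's coefficient was -0.26 and -0.30 in replicates 1 and 3 and 0.15 in replicate 2. The 3 libraries of PABP fRIP (-0.57, -0.55 and -0.60), HUR fRIP (0.46, 0.46 and 0.48) and SUZ12 fRIP (0.44, 0.43 and 0.46) lay close together.

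**Figure D4:**
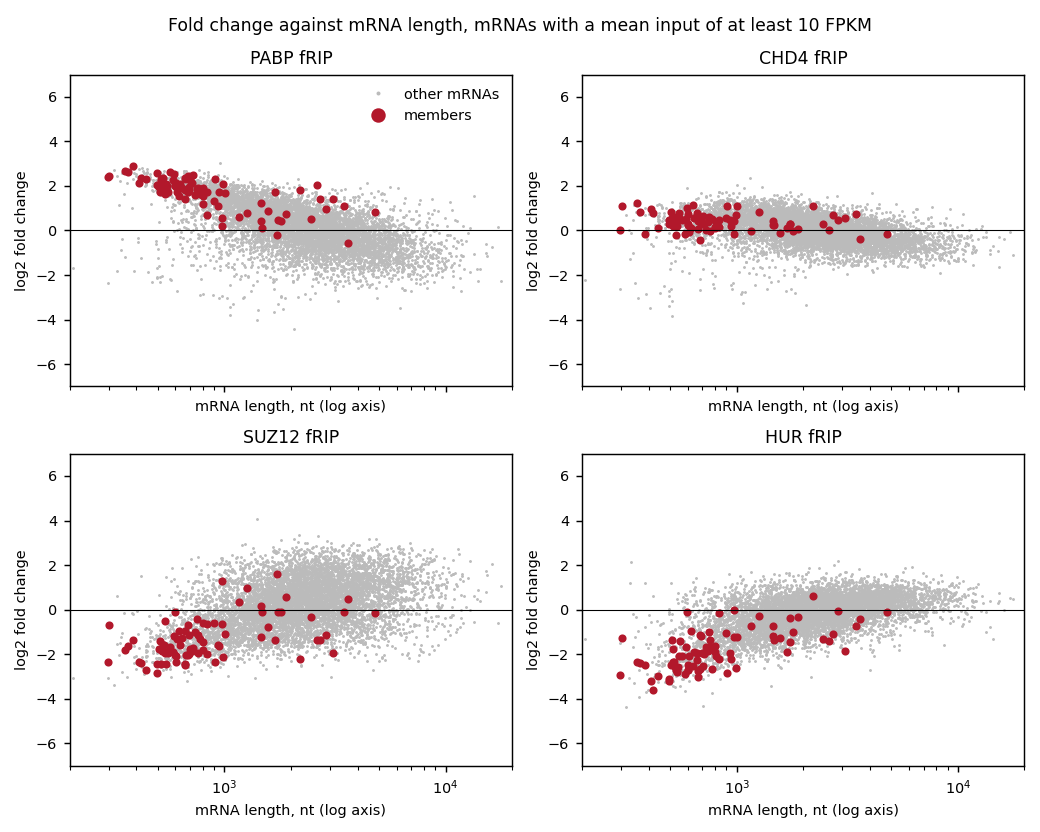
Log2 fold change against input (vertical axis) over mRNA length in nt on a log axis (horizontal) in PABP, CHD4, SUZ12 and HUR fRIP, with red circles for the 82 members and grey points for other mRNAs with a mean input of at least 10 FPKM. Members fall with length in PABP fRIP (Spearman's coefficient -0.75) and rise with it in HUR (0.65) and SUZ12 fRIP (0.53), and the grey points slope the same way (-0.60, 0.51 and 0.40).

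The other genes of the pathway were read by kind. The list comprised complex II, cytochrome c and c1, 24 further assembly factors, 11 transcription factors and regulators, and the 13 mRNAs encoded by mitochondrial DNA. In PABP fRIP cytochrome c (CYCS; 261, 264 and 225 FPKM, 1.42 ± 0.23 SE) and cytochrome c1 (CYC1; 369, 415 and 379 FPKM, 1.28 ± 0.15 SE), which carry electrons between and within the complexes, rose with them. Of 24 assembly factors 10 rose and 0 fell in PABP fRIP, led by COX17, a copper chaperone for complex IV (76.9, 74.1 and 117 FPKM, 2.32 ± 0.19 SE). COX17 was also the largest rise in CHD4 fRIP (1.15) and COX14, an assembly factor of complex IV, in DNMT1 fRIP (124, 115 and 154 FPKM, 2.11). None of the 10 regulators tested rose in PABP fRIP and 1 fell, near the shares over all genes there (11.1% higher and 14.7% lower).

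Complex II, the succinate dehydrogenase, feeds electrons into the chain. Its 5 rows tested include a second row of SDHD with 0.383 FPKM in input. Of them 2 rose and 0 fell in PABP fRIP, with 11.1% of all genes higher and 14.7% lower. In both SUZ12 and HNRNPH1 fRIP 1 rose and 2 fell. Of all genes 15.3% were higher and 8.60% lower in SUZ12 fRIP, and 24.5% and 7.90% in HNRNPH1 fRIP. SDHB, its iron-sulfur subunit, had 22.5, 26.8 and 30.0 FPKM in HNRNPH1 fRIP and 112 to 268 FPKM in input, the largest fall of the pathway list there (-2.75 ± 0.19 SE). In SUZ12 fRIP the largest rise was in ACAD9, a complex I assembly factor that is related to acyl-CoA dehydrogenases (75.5, 63.3 and 86.9 FPKM against 16.9 to 20.1 FPKM, 1.93 ± 0.13 SE), on the same side as NDUFAF5 and NDUFAF7. Of the 24 further assembly factors 2 were higher and 3 lower there (median -0.26), where 15.3% of all genes were higher and 8.60% lower. In ADAR fRIP ATPIF1, the inhibitor of ATP synthase, fell most (-1.36).

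The mRNAs encoded by mitochondrial DNA for the same complexes were lower together with nuclear members in some fRIPs (all 13 in SUZ12, EZH2, LSD1 and CBX3 fRIP) and not in others. All 13 were lower in 14 fRIPs, including DNMT1 (median -4.09) and CHD4 fRIP (-2.36), in which no nuclear member was lower, and 8 of 13 were lower in PABP fRIP (-1.48). MT-ATP8 had 16.0, 16.4 and 16.3 FPKM in DNMT1 fRIP and 348 to 619 FPKM in input (-4.76 ± 0.24 SE, limma adjusted p = 1.50e-24). MT-ND5 had 51.2, 42.6 and 56.0 FPKM in PABP fRIP and 326 to 470 FPKM in input (-2.96 ± 0.18 SE). In ADAR fRIP the order was the other way round, and all 13 were higher (median 2.70). MT-ND6, encoded on the other strand than most, had 1815, 2628 and 2970 FPKM in ADAR fRIP against 85.7 to 145 FPKM (4.33 ± 0.25 SE, limma adjusted p = 1.92e-23). HNRNPH1 (7 of 13) and HNRNPU fRIP (5 of 13) were the only other fRIPs with any of them higher, and HDAC1 fRIP had none called in either direction. These transcripts overlap, lie on both strands and have copies in the nuclear genome, so the values of neighbours cannot be fully told apart.

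Which isoforms made up the members' FPKM was read from the isoform table, which did not enter the choice of members. Protein-coding isoforms held 73.3% ± 2.04 of member FPKM in the 9 inputs (SD), and isoforms annotated with a retained intron 4.26% ± 1.19. By input set the retained-intron share was 5.75%, 3.68% and 3.35%. In HNRNPH1 fRIP it was 26.9%, 23.4% and 22.6%, in SUZ12 fRIP 18.2%, 18.1% and 17.4%, in ADAR fRIP 17.5%, 17.3% and 14.9%, in CBX3 fRIP 13.2%, 17.0% and 13.9%, and in HUR fRIP 13.8%, 13.5% and 12.3%. Every library of these fRIPs lay above every input (exact two-sided permutation p = 0.00455 each, 0.00992 after Benjamini-Hochberg adjustment over 24 fRIPs). In all, 12 fRIPs passed that adjustment with a higher and 3 with a lower share. The lower ones were PABP fRIP (1.21%, 1.27% and 1.06%), CHD4 fRIP (1.70%, 2.22% and 1.72%) and DNMT1 fRIP (2.40% ± 0.45 SD, n = 3). Over all genes the share was 8.24% in the inputs, 21.7% in SUZ12, 16.9% in HNRNPH1, 19.9% in CBX3, 11.3% in HUR, 9.34% in DNMT1, 6.59% in ADAR, 4.81% in CHD4 and 3.86% in PABP fRIP. ADAR fRIP lay above input for the members and below it for all genes. Over all genes, however, protein-coding isoforms held 16.4% of FPKM in ADAR fRIP and 57.6% in the inputs. The retained-intron shares over all genes in ADAR fRIP and input are therefore not of like totals. DNMT1 fRIP lay below input for the members. For all genes it lay above the 9 inputs but below input set 1, its matched set (9.89%). No test was made of the shares over all genes.

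**Figure D5:**
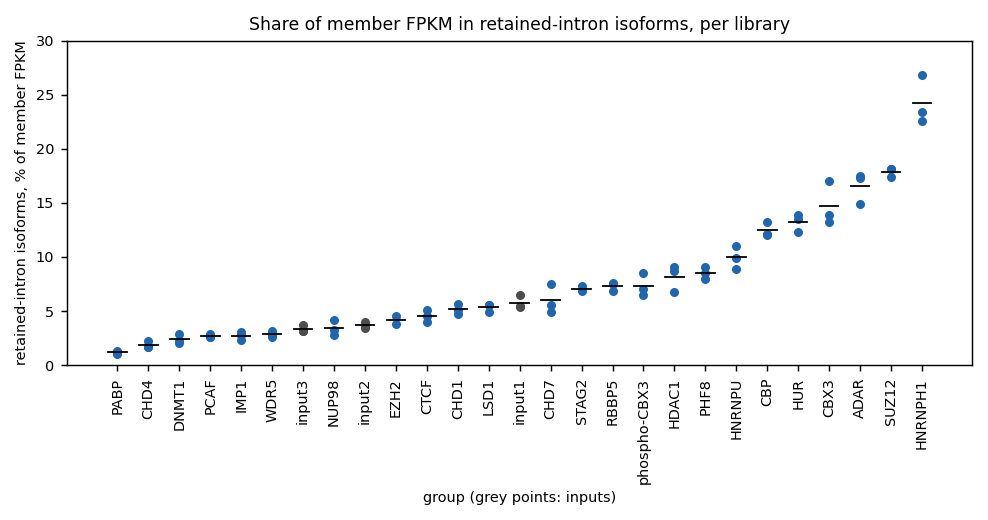
Share of member FPKM in isoforms annotated with a retained intron (vertical axis, percent) in each library (points, grey for inputs) and as a group mean (lines), over the fRIPs and input sets (horizontal axis, ordered by the mean). PABP fRIP is lowest at 1.06% to 1.27%, the inputs lie between 3.15% and 6.50%, and HNRNPH1 fRIP is highest at 22.6% to 26.9%.

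Counted by isoform, 31 retained-intron isoforms of the members had a mean of at least 5 FPKM over all libraries. In HNRNPH1 fRIP 14 of them were more than 1 above input on the log2 scale of the means and 8 more than 1 below. SUZ12 fRIP had 9 above and 1 below, CBX3 fRIP 14 and 1, PHF8 fRIP 12 and 1, and CBP fRIP 10 and 1. ADAR fRIP had 7 above and 7 below (median -0.21), and HUR fRIP 1 above and 6 below (median 0.04), although the share was raised in both. PABP fRIP had 6 above and 19 below, CHD4 fRIP 1 and 19, and IMP1 fRIP 0 and 22. Of 144 protein-coding isoforms by the same filter, 107 were more than 1 below input in HNRNPH1 fRIP, 114 in SUZ12 fRIP, 96 in ADAR fRIP, 110 in HUR fRIP and 10 in PABP fRIP. No test was made on single isoforms, whose estimates from 31-base reads share the reads of their gene. The same counts over the isoforms of all genes are not given, so these counts do not set the members apart from other genes.

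A pair of isoforms, chosen after their values were seen, is given as an example and does not stand for the others. NDUFA13 (also known as GRIM-19) encodes an accessory subunit of complex I, and its retained-intron isoform ENST00000511180 had 71.7, 40.1 and 46.0 FPKM in HNRNPH1 fRIP and 2.10 to 5.63 FPKM in input, while it had 0.135, 0.135 and 0.134 FPKM in PABP fRIP. At the level of the gene NDUFA13 was not called in HNRNPH1 fRIP (153, 121 and 129 FPKM, log2 difference 0.05 ± 0.15 SE, limma adjusted p = 0.79). ATP5C1 encodes the gamma subunit, the rotating shaft of ATP synthase, and its retained-intron isoform ENST00000472202 had 40.4, 37.1 and 35.2 FPKM in SUZ12 fRIP and 2.17 to 5.01 FPKM in input, with 0.161, 0.164 and 0.318 FPKM in PABP fRIP and 9.16, 9.34 and 7.53 FPKM in HNRNPH1 fRIP. Of the 31-base words of NDUFA13 73.5% occur in other genes, so its isoform levels are uncertain.

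HNRNPH1 is known to bind runs of guanine, and the retained introns of this pair are shown with such runs marked. Shown are 300 bases of each in GRCh37, on the plus strand and read 5′ to 3′, with runs of 4 or more G in capitals: chr19:19638210-19638509, the end of an intron of NDUFA13, and chr10:7841214-7841513, within an intron of ATP5C1.
NDUFA13: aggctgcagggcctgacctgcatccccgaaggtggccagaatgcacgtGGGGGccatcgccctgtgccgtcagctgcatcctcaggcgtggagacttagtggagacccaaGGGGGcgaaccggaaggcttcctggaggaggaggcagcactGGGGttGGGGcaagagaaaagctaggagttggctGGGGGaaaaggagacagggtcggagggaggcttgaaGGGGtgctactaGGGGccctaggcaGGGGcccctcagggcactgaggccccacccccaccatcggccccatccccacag
ATP5C1: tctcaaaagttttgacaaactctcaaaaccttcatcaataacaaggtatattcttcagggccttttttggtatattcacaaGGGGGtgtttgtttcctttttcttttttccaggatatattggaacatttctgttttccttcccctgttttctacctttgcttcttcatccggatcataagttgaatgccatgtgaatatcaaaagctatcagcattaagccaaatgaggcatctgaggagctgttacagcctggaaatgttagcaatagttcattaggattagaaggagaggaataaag
The NDUFA13 window held 8 runs of GGGG or longer on the transcribed strand and the ATP5C1 window 1. Of 175508 intron windows of 300 bases, 57.3% held at least 1 such run (median 1) and 0.291% held 8 or more. Over all 31 retained-intron isoforms Spearman's coefficient between the log2 ratio to input and such runs per kb of the whole isoform ranged from -0.42 in RBBP5 to 0.82 in CBP fRIP over the 24 fRIPs, and was 0.29 in HNRNPH1 and 0.31 in SUZ12 fRIP. With the GC percent of the isoform it was 0.78 in CBP, 0.25 in HNRNPH1 and 0.10 in SUZ12 fRIP. A run is a match of letters and is not a binding site by itself.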

How the data were processed

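Formaldehyde RIP libraries of 24 proteins (70 libraries) and 9 inputs from K562 cells were sequenced as paired ends. Per the labels and methods, the authors aligned reads with TopHat to hg19 with GENCODE v18 and deposited FPKM per gene and isoform from Cuffdiff and Cuffnorm; for read filters and strand setting, the choice is not stated. The deposited table of comparisons holds the authors' fold changes and p-values, which were not used; its group FPKM served only to find the matched input set.

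The 25442 of 48453 genes that reached 1 FPKM in 2 or more of 79 libraries were fitted on log2(FPKM + 1) with limma 3.58.1 (trend) in R 4.3.3, with a mean per protein and 1 for the 9 inputs, and Benjamini-Hochberg adjustment within each comparison. The script was tested on simulated data. Single values were compared by exact two-sided permutation tests. Depth was estimated from the step that 1 fragment adds to low FPKM, read from 1343 genes; of the low values used in a library, 92.2% to 98.7% came out whole within 0.05. Values of some genes are not reported here. Members and lists were chosen with earlier results of these data known. Named were fixed members, tissue isoforms, assembly factors, the 3 largest changes in each direction in 6 fRIPs (the 1 largest in others), the most and least variable members, and the extremes of the contrasts and the pathway list. The largest changes in a fRIP were taken among called members with every library of the fRIP beyond every input. For members named in this way, the lack of overlap with input follows from the choice.

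Replicate numbers were checked for pairing with the matched input set: every pair of deviations correlated over 0.1 for CHD1 (0.129 to 0.516), NUP98 (0.132 to 0.457), PCAF (0.138 to 0.599) and WDR5 fRIP (0.171 to 0.503). Alternatives were the pseudocount, the filter, centring, each input set, the replicate block, own libraries only and leaving out each library.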

Additional observations from a re-analysis of the deposited data

Results flagged for a closer look

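Of 48 values tested for a library far from the rest of the 9 inputs, 3 stood apart, all in replicate 3 of input set 2, where chance alone marks about 1 group in 20. For NDUFAF6, an assembly factor, this library was the highest (5.21 on the log2(FPKM + 1) scale, median of the others 4.48), with a gap of 0.542 of the whole range. For the ATP5J2-PTCD1 row it was also the highest (3.30 against 2.00, gap 0.508). For NDUFA4L2 it was the lowest (1.56 against 2.94, gap 0.511).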

How the results depend on the processing

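None of the 63 named member values changed sign. They kept their call in 658 comparisons with an alternative and lost it in 38, and on leaving out libraries they kept it in 663 and lost it in 14. Splits of counts and medians near 0 did turn (CBP, PHF8, NUP98, CHD1 and CTCF fRIP, as given with each). With a pseudocount of 0.1 FPKM the number of members lower was 4 in CHD4, 2 in DNMT1 and 5 in PABP fRIP, 0 for phospho-CBX3 against CBX3 and 3 for WDR5 against RBBP5; with 0.5 FPKM it was 3 in CHD4, 1 in DNMT1 and 2 for WDR5 against RBBP5. A filter of 5 FPKM gave 1 lower in CHD4 fRIP, and no filter 1 lower in PABP fRIP and 0 for phospho-CBX3 against CBX3. After centring, 21 were higher in CHD4 fRIP, 0 lower in PABP fRIP, 5 higher and 73 lower in ADAR fRIP, 1 lower for CHD4 against SUZ12, 0 lower for phospho-CBX3 against CBX3, and 28 higher and 0 lower for WDR5 against RBBP5.

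Against input set 1 alone, 289 pairs were lower, 250 pairs of a member and a fRIP were called over the 18 fRIPs other than CHD4, DNMT1, PABP, SUZ12, ADAR and HNRNPH1, 27 were higher and 2 lower in CHD4 fRIP, 9 lower in ADAR and 1 lower in PABP fRIP. Set 2 gave 2 higher and 1 lower in CHD4, 1 lower in DNMT1 and 1 lower in PABP fRIP, and set 3 gave 2 higher in CHD4, 15 higher in DNMT1 and 1 lower in PABP fRIP. The matched set gave 27 higher and 2 lower in CHD4, 9 lower in ADAR and 1 lower in PABP fRIP, with or without the replicate block. A fit to own libraries gave 1 lower in CHD4 fRIP. The cause was not tested.

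With the replicate block 147 pairs were higher and 549 lower, 1 member was lower in CHD4 fRIP, and with the matched sets and the block 171 were higher and 383 lower. Where numbers pair the libraries, the block moved counts by at most 1.

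Taken as the median over members, the protein-coding share was 86.1% in the inputs, 92.8% in CHD4, 86.3% in DNMT1, 93.0% in PABP, 66.7% in SUZ12, 73.1% in ADAR and 60.9% in HNRNPH1 fRIP. Over all 92 members Spearman's coefficient with length was -0.43 in DNMT1, -0.58 in PABP, 0.45 in SUZ12, 0.31 in ADAR and 0.17 in HNRNPH1 fRIP. With the longest transcript it was -0.31, -0.33, 0.23, 0.11 and 0.0227, with members of at least 10 FPKM -0.51, -0.75, 0.53, 0.42 and 0.27, and with coding length -0.58 in DNMT1, 0.51 in SUZ12 and 0.11 in HNRNPH1 fRIP.

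Leaving out each library in turn gave 137 to 152 pairs higher and 524 to 600 lower. Members higher and lower were 66 to 67 and 1 to 2 in PABP, 23 to 32 and 0 in DNMT1, 2 to 12 and 0 to 1 in CHD4, 3 to 4 and 54 to 58 in SUZ12, 8 to 9 and 31 to 47 in ADAR, and 6 and 55 to 58 in HNRNPH1 fRIP. They were 57 to 64 and 2 to 3 for CHD4 against SUZ12, 5 to 8 and 13 to 20 for SUZ12 against EZH2, 0 to 1 and 0 to 1 for phospho-CBX3 against CBX3, and 3 to 6 and 1 to 2 for WDR5 against RBBP5. Over those 18 fRIPs 404 to 458 pairs were called. Low rows in the shallow ADAR libraries are the values most limited by depth.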
